A study of Homo sapiens with 9 samples.

Results

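Gene expression in MCF10A cells that expressed deltaNp63alpha was compared with expression in MCF10A cells that carried the vector only. The comparison used 6 of the 9 libraries of the series, 3 of each kind. It covered 14738 of 41857 genes, those that reached 10 in 3 or more of these 6 libraries. MCF10A is a non-tumorigenic human mammary epithelial line, kept here in medium with horse serum, epidermal growth factor, hydrocortisone, cholera toxin and insulin. Both groups received 500 ng/mL doxycycline for 24 h, and the labels give the cells' own genotype as WT. The other 3 libraries, cells with deltaNp63beta under the same treatment, entered the shared estimate of spread and a closing comparison. The labels do not say whether the cells with an insert came from 1 clone or a pool, and they do not say what separates replicate cultures, so the p-values measure the spread between these libraries.

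p63 is a transcription factor of the p53 family that keeps the basal layer of stratified and glandular epithelia. Its deltaN forms lack the N-terminal activation domain, and the alpha form has a long C-terminal tail with a sterile alpha motif domain. In skin and in the mammary gland, deltaNp63alpha is the main form in basal cells, where it controls keratins, integrins, desmosome genes and growth factor receptors.

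Values are normalized estimated counts per gene as deposited, not divided by transcript length, so they are compared between libraries and not between genes. The 6 libraries each summed to between 22.5 and 22.9 M (mega). On a log2 scale, libraries of the same group correlated at r between 0.98 and 0.983 and libraries of different groups at between 0.969 and 0.976, across genes. Summed levels of 27 basal epithelial markers ranged from 356500 to 362600 with vector and from 568600 to 611200 with deltaNp63alpha. Those of 24 luminal mammary markers ranged from 101300 to 102900 with vector and from 115000 to 116700 with deltaNp63alpha. The 10 fibroblast markers summed to between 10610 and 10950 with vector and between 7790 and 7919 with deltaNp63alpha, of which DCN and FBLN1 fell and COL1A2, COL3A1, PDGFRA, PDGFRB and THY1 were under the filter on low values. The 10 leukocyte markers summed to between 1873 and 2087 with vector and between 1281 and 1642 with deltaNp63alpha. Of these, ITGB2 (-0.93 ± 0.11 on the log2 scale) and CD68 (-0.40 ± 0.09) were detected and fell, CD14, CSF1R and LAPTM5 were detected and did not pass, PTPRC, CD3E and SPI1 were under the filter, and TYROBP was at 0 in all 6 libraries. The 8 endothelial markers summed to between 217 and 283.8 with vector and between 171.9 and 183.2 with deltaNp63alpha, and PECAM1 (-1.13 ± 0.28) among them fell. PECAM1 did not pass without deltaNp63alpha library 1 or 3 or vector library 2. The part of other cell types in the results was not tested.

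TP63 (ENSG00000073282, chr3:189631416-189897279 on the + strand of GRCh38) was the gene under test. It was at 316, 332 and 259 with vector and at 4426, 6983 and 6961 with deltaNp63alpha. All 3 deltaNp63alpha libraries lay above the vector libraries, and deltaNp63alpha library 1 was the lowest of the 3. The log2 fold change was 4.31 ± 0.22 (SE, adjusted p = 2.03e-06). A value per gene sums all transcripts, so RNA of the insert and RNA of the cells' own TP63 cannot be told apart, and neither can the isoforms.

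Relative to vector, 1236 genes were higher and 972 were lower with deltaNp63alpha at an adjusted p under 0.05, which is 8.39% and 6.6% of the genes tested. Most of these changes were small. The median fold among the called genes was 1.33, and 206 genes (1.4%) rose and 129 (0.875%) fell by at least 2-fold. At least 4-fold changes were found in 34 genes that rose and 16 that fell. The values of the groups did not overlap in 5006 genes, 34% of those tested. This is more than the 15% that were called. Separation of the groups in a called gene is therefore given below only as a description and adds no support to its call. Of the called genes, 764 higher and 464 lower ones kept their call whichever of the 9 libraries was left out. The count of lower genes dropped to 644 without deltaNp63alpha library 3, 645 without vector library 2 and 647 without vector library 3. Calls depended on level, with 5.72% of 3584 genes called at a mean under 100, 14% of 6156 between 100 and 1000, 22.3% of 4695 between 1000 and 10000 and 31% of 303 above that. Over the same bins the median SE on the log2 scale dropped from 0.392 to 0.044.

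deltaNp63alpha library 1, with the lowest TP63 value, was also the lowest of the 3 in 564 of the 1236 genes that rose. deltaNp63alpha libraries 2 and 3 were the lowest in 326 and 346 of them. Among the 972 genes that fell, library 1 was the highest of the 3 in 399, library 2 in 280 and library 3 in 293. Among genes that did not pass the test, the 3 libraries were the lowest in 4301, 4229 and 4000. Without library 1, 992 genes were higher and 777 lower.

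**Figure D1:**
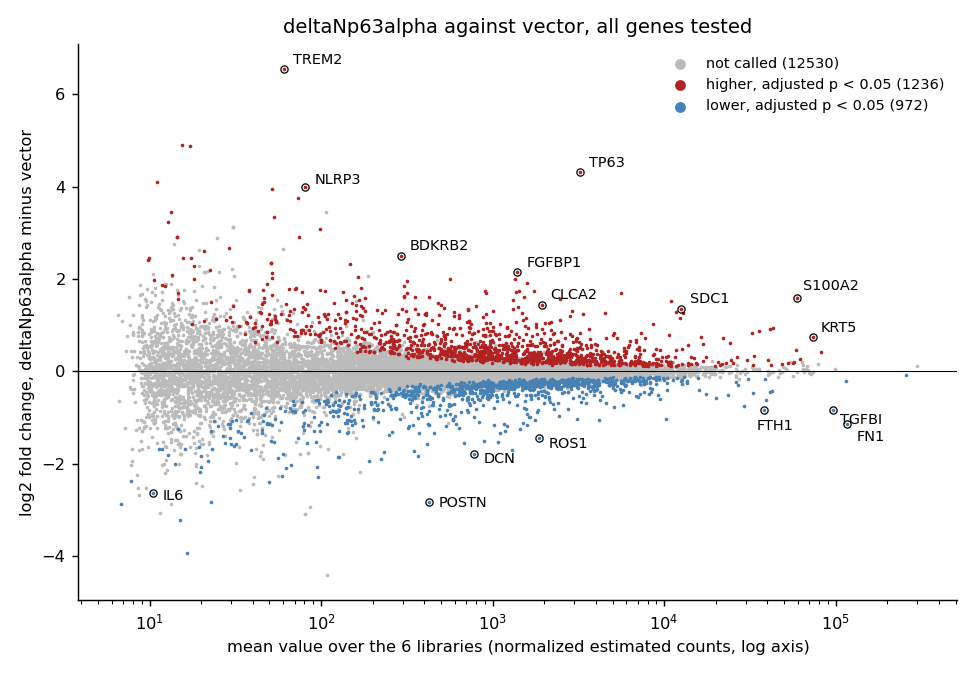
Each point is 1 of the 14738 genes tested. The x axis (log scale) is the mean value over the 6 libraries in normalized estimated counts, and the y axis is the log2 fold change, deltaNp63alpha minus vector; colours mark the 1236 genes called higher and the 972 called lower. TP63 stands apart at a log2 fold change of 4.31, and of the 303 genes with a mean above 10000, 6 rose and 2 fell at least 2-fold, S100A2 and FN1 among them.

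A list of 42 tested genes described as direct p63 targets held 30 that rose and 2 that fell, with a median log2 fold change of 0.61, against -0.01 over all genes tested. The list was drawn from earlier knowledge of p63 in epithelia and its choice was not independent of results on these libraries. CLCA2, a regulator of chloride conductance in basal cells, was at 1064, 1005 and 1043 with vector and at 2982, 2677 and 2814 with deltaNp63alpha. Its log2 fold change was 1.44 ± 0.05 (SE, adjusted p = 2.99e-08). SFN, which encodes the 14-3-3 sigma protein, was at 7715, 7163 and 7790.3 with vector and at 16589, 19976 and 18221 with deltaNp63alpha, a log2 fold change of 1.27 ± 0.06 (SE, adjusted p = 1.72e-07). In both genes the highest vector library lay below the lowest deltaNp63alpha library. The 2 members that fell were IGFBP3, a binding protein of insulin-like growth factors, at -1.13 ± 0.16 (SE, adjusted p = 0.000502), and SAMD9L, an interferon-inducible gene, at -0.84 ± 0.19 (SE, adjusted p = 0.0126). SAMD9L did not pass without vector library 1.

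Keratins of the basal layer rose by different amounts. KRT14, the type I keratin of basal cells, was at 447, 403 and 383 with vector and at 1218, 1438 and 1494 with deltaNp63alpha. KRT5, its type II partner, was at 57839, 53800.5 and 54752 with vector and at 94351, 93665 and 89777 with deltaNp63alpha. The log2 fold changes were 1.75 ± 0.13 (SE, adjusted p = 4.29e-06) and 0.74 ± 0.03 (SE, adjusted p = 1.69e-07). KRT17 was at 7029.5, 6545 and 6960.1 with vector and at 15458, 17413 and 17258 with deltaNp63alpha, a log2 fold change of 1.29 ± 0.05 (SE, adjusted p = 7.66e-08), and KRT6A was at 29639, 29268 and 29378 with vector and at 53399.5, 58979 and 56703 with deltaNp63alpha, a log2 fold change of 0.94 ± 0.04 (SE, adjusted p = 4.64e-08). These 2 keratins are induced in wounded and proliferating epithelium. In all 4 keratins the groups were separated, which for KRT14 was a condition of its rank among the largest rises. Of 27 basal markers tested, 20 rose and 2 fell, with a median log2 fold change of 0.83. The 2 that fell were KRT16, which partners KRT6A in activated skin, at -0.61 ± 0.14 (SE, adjusted p = 0.0133), and ACTA2, the smooth muscle actin of myoepithelial cells, at -0.50 ± 0.11 (SE, adjusted p = 0.00873). KRT16 did not pass without vector library 1. KRT14, KRT16 and KRT17, and KRT6A with its close copies, share long stretches of sequence, and how far the counting split their reads is not given in the sources used here.

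Desmosome genes moved in 1 direction. Of 12 tested, 11 rose and none fell, with a median log2 fold change of 0.55. DSG3, a desmosomal cadherin of basal cells, was at 896, 1057 and 955 with vector and at 2054, 2259 and 2162 with deltaNp63alpha, a log2 fold change of 1.16 ± 0.06 (SE, adjusted p = 4.51e-07). DSC3, its partner cadherin, was at 1288, 1363 and 1300.0 with vector and at 2843, 2674 and 2633 with deltaNp63alpha, a log2 fold change of 1.04 ± 0.07 (SE, adjusted p = 1.37e-06). Both cadherins roughly doubled and had no overlap between groups. DSP, which links the plaque to keratin filaments, rose by less (0.46 ± 0.04 SE, adjusted p = 3.22e-05), as did the plaque protein JUP (0.59 ± 0.06 SE, adjusted p = 6.25e-05). PKP1, DSC1 and DSG1 were under the filter on low values, and DSG4 was at 0 in all 6 libraries.

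Promoter sequence was available from a RefSeq table (GRCh38.p14) for 121 of the 230 genes considered by name and for 7434 of the genes tested, as 250 bases before and 50 after the start of each gene. The decamer half-site of the p53 family (3 purines, a C, 2 bases that are A or T, a G and 3 pyrimidines, a pattern that is its own reverse complement) was in 6.79% of 619 promoters of genes that rose, 4.7% of 511 of genes that fell and 4.98% of 6304 of genes not called. It was in 6.61% of all 22114 promoters in the table. Among genes changed at least 2-fold it was in 10 of 107 that rose and 3 of 71 that fell. The longer pattern CATGNNNNNNCATG, searched on both strands, was in 1 of 619 promoters of genes that rose, 2 of 511 of genes that fell and 15 of 6304 of genes not called (0.238%), and in 0.439% of all promoters. Its CATG parts can coincide with the core of the half-site. The AP-1 pattern TGANTCA was in 5.01% of promoters of genes that rose, 6.07% of genes that fell, 4.2% of genes not called and 8.05% of all promoters. A match describes the letters in these windows and does not show that p63 binds there.

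Promoters of the genes considered by name were searched for a half-site wholly before the RefSeq start, except those on 1 chromosome. Of the genes searched, 10 held such a half-site. In 4 of them (KRT5, COL17A1, DSC3 and PTHLH) the surrounding stretch overlaps an exon of the GENCODE annotation, so it is not shown. In the other 6 it overlaps no annotated exon, and the sequences of the 5 whose call held with any 1 library left out are given here, to show the half-site before genes that rose and genes that fell. Each is 60 bases of the gene's strand with the half-site in capitals. The stretches are DSG3 at chr18:31447498-31447557 (+ strand), FGFBP1 at chr4:15938759-15938818 (- strand), DUSP7 at chr3:52056732-52056791 (- strand), KRT8 at chr12:52926571-52926630 (- strand) and SERPINA3 at chr14:94612193-94612252 (+ strand).
DSG3: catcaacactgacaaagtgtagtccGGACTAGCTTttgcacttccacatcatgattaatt
FGFBP1: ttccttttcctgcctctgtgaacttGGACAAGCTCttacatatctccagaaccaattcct
DUSP7: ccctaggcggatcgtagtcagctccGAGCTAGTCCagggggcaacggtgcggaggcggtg
KRT8: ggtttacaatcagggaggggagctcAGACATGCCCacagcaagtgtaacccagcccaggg
SERPINA3: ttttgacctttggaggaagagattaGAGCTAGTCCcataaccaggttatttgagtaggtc
The half-site began 218 bases before the start in DSG3, 53 in FGFBP1, 195 in DUSP7, 136 in KRT8 and 173 in SERPINA3. DSG3, FGFBP1 and DUSP7 rose, and KRT8 and SERPINA3 fell, as described with their groups. TNFSF15, the remaining gene, rose but did not pass without some of the libraries.

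Of 28 tested genes for hemidesmosomes and adhesion to the basement membrane, 10 rose, 5 fell and 13 did not pass, with a median log2 fold change of 0.01. ITGB4, the integrin chain of hemidesmosomes, was at 24843, 21858 and 23026 with vector and at 38169, 45535 and 40563 with deltaNp63alpha, a log2 fold change of 0.83 ± 0.07 (SE, adjusted p = 1.72e-05). COL17A1, its transmembrane collagen, was at 7496, 7550.1 and 8018 with vector and at 16354, 18113 and 17010.1 with deltaNp63alpha, a log2 fold change of 1.16 ± 0.05 (SE, adjusted p = 7.66e-08). ITGA6 (0.74 ± 0.04), the partner chain of ITGB4, and DST (0.83 ± 0.04), a cytolinker of hemidesmosomes, rose as well. PLEC, which encodes the hemidesmosome cytolinker plectin, did not pass (-0.02 ± 0.07 SE, adjusted p = 0.905), nor did the tetraspanin CD151 (0.02 ± 0.05 SE, adjusted p = 0.864). ITGA3, an integrin chain that also binds laminin, rose (0.61 ± 0.04).

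LAMA3 and LAMB3 encode chains of laminin-332, the laminin that hemidesmosomes bind. LAMA3 was at 25036, 26069.7 and 24577 with vector and at 44967, 47200.0 and 47544 with deltaNp63alpha, a log2 fold change of 0.88 ± 0.04 (SE, adjusted p = 2.53e-07). LAMB3 was at 49279.6, 49076 and 48616 with vector and at 63210.1, 71708 and 69332 with deltaNp63alpha, a log2 fold change of 0.47 ± 0.06 (SE, adjusted p = 0.000177). The members that fell included the collagen IV chains COL4A1 (-0.65 ± 0.06) and COL4A2 (-0.50 ± 0.05) and the laminin chain LAMB2 (-0.33 ± 0.08). LAMB2 did not pass without deltaNp63alpha library 1 or 3 or vector library 1 or 2. The collagen IV chains form the network of the basement membrane and are transcribed from neighbouring starts. The kindlin genes FERMT1 and FERMT2, whose products activate integrins, went opposite ways. FERMT1 was at 0.39 ± 0.05 (SE, adjusted p = 0.000259) and FERMT2 at -0.92 ± 0.07 (SE, adjusted p = 6.72e-06).

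Of 27 genes of tight, adherens and gap junctions, 15 rose and 1 fell, with a median log2 fold change of 0.38. CDH1, the E-cadherin of adherens junctions, was at 652, 467 and 505 with vector and at 1367, 1294 and 1177 with deltaNp63alpha, a log2 fold change of 1.25 ± 0.11 (SE, adjusted p = 1.68e-05). MARVELD3, a tight junction protein, was at 66.4, 45.0 and 75.1 with vector and at 223, 224 and 169 with deltaNp63alpha, a log2 fold change of 1.73 ± 0.20 (SE, adjusted p = 0.00012). The gap junction gene GJB2 (1.33 ± 0.13) and the junctional adhesion molecule F11R (0.80 ± 0.07) rose too. Nectins, which pair cells before cadherins do, moved in opposite directions. NECTIN1 was at 2102, 2318 and 2041 with vector and at 3573, 3840.3 and 3558 with deltaNp63alpha, a log2 fold change of 0.76 ± 0.07 (SE, adjusted p = 1.84e-05). NECTIN4 was at 138, 136 and 94.0 with vector and at 43.1, 53.8 and 28.9 with deltaNp63alpha, a log2 fold change of -1.55 ± 0.26 (SE, adjusted p = 0.00193), and was the member of the list that fell. Without 1 library, between 11 and 15 members rose.

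**Figure D2:**
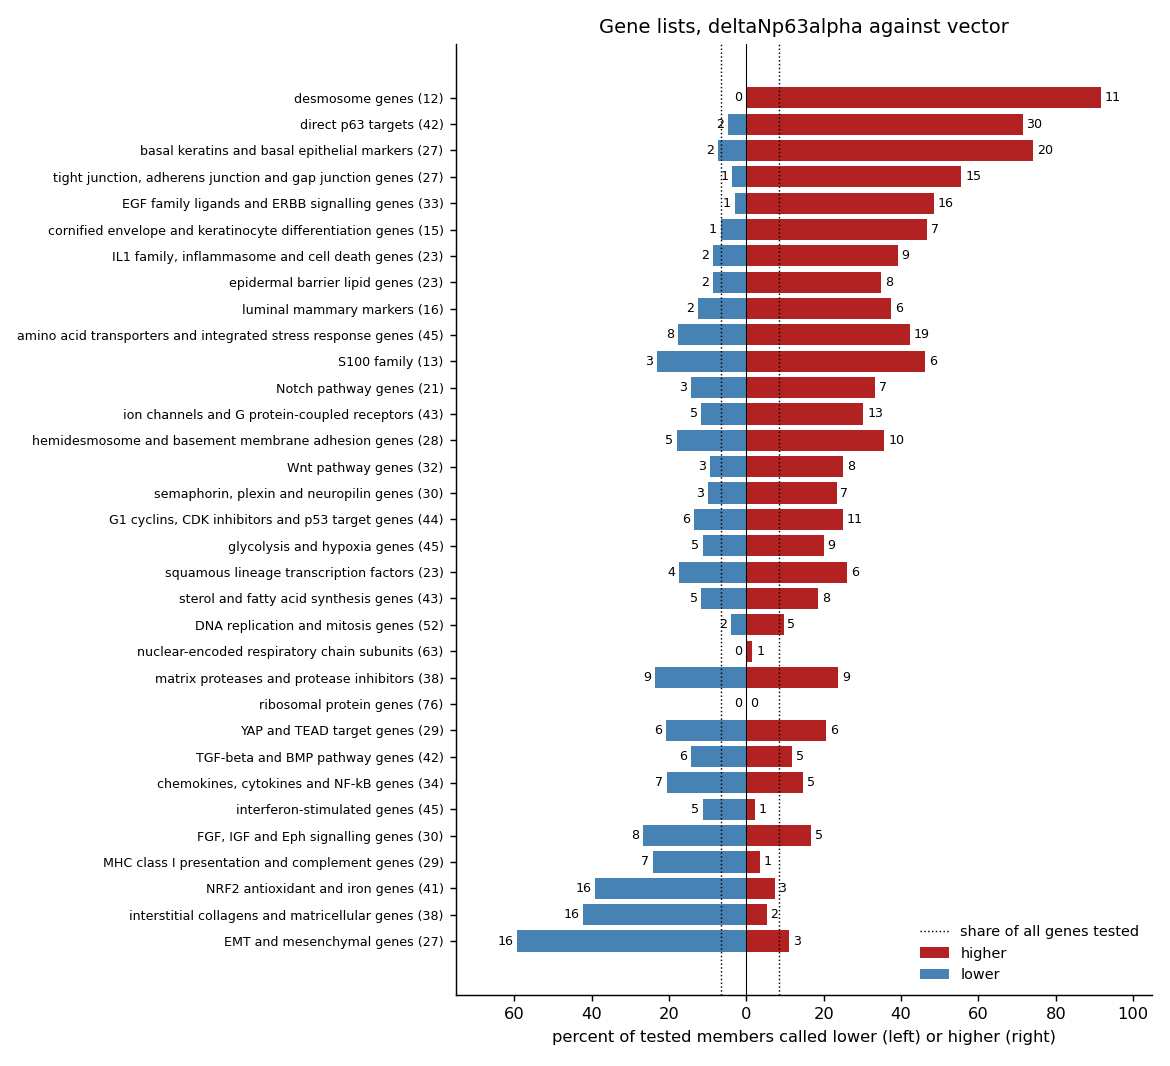
Bars give, for each gene list, the percentage of its tested members called higher (right) and lower (left) with deltaNp63alpha, and dotted lines mark the shares over all genes tested, 8.39% and 6.6%. The desmosome, basal and p63 target lists extend farthest to the right, and the EMT and collagen lists extend to the left.

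Of 38 interstitial collagens and matricellular genes, 16 fell, 2 rose and 20 did not pass, with a median log2 fold change of -0.34. FN1, which encodes fibronectin, was at 161019.5, 162782 and 159900.5 with vector and at 72090.5, 74635 and 71600.1 with deltaNp63alpha. Its log2 fold change was -1.15 ± 0.04 (SE, adjusted p = 3.85e-08). POSTN, which encodes periostin, was at 708, 746 and 791 with vector and at 114, 80.5 and 125 with deltaNp63alpha, a log2 fold change of -2.83 ± 0.28 (SE, adjusted p = 4.22e-05). By the ratio of means FN1 roughly halved, and POSTN fell further. COL6A3, a collagen VI chain, was at 1607, 1829.8 and 1367 with vector and at 626, 504 and 528 with deltaNp63alpha, a log2 fold change of -1.53 ± 0.13 (SE, adjusted p = 1.29e-05). DCN, a small proteoglycan that binds collagen fibrils, was at 1211, 1212 and 1208 with vector and at 343, 347 and 359 with deltaNp63alpha, a log2 fold change of -1.79 ± 0.11 (SE, adjusted p = 1.45e-06). TGFBI, a matrix protein first known as a TGF-beta target, was at 121481, 122853 and 125347 with vector and at 65059, 69593 and 72679 with deltaNp63alpha, a log2 fold change of -0.84 ± 0.04 (SE, adjusted p = 4.06e-07). Groups did not overlap in any of these 5 genes, which for POSTN, COL6A3 and DCN was a condition of their rank among the largest falls. DCN and FBLN1, members of this list, are also 2 of the fibroblast markers whose sums are given above. The 2 members that rose were LTBP1, a latent TGF-beta binding protein, and TNC, which encodes tenascin C, at 0.36 ± 0.10 (SE, adjusted p = 0.0405). TNC did not pass without deltaNp63alpha library 2 or 3, deltaNp63beta library 2 or any 1 of the vector libraries.

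EMT and mesenchymal genes gave 16 that fell and 3 that rose of 27, with a median log2 fold change of -0.46, and several of them are matrix genes already described. Among transcriptional repressors of CDH1, ZEB1 was at 492, 489 and 503 with vector and at 292, 211 and 300.0 with deltaNp63alpha, a log2 fold change of -0.90 ± 0.14 (SE, adjusted p = 0.00145), and ZEB2 was at 524, 483 and 355 with vector and at 210.0, 182 and 185 with deltaNp63alpha, a log2 fold change of -1.22 ± 0.19 (SE, adjusted p = 0.00139). CDH2, the N-cadherin of mesenchymal cells, was at 1734, 1743 and 1720.4 with vector and at 1058, 1042 and 1028 with deltaNp63alpha, a log2 fold change of -0.73 ± 0.05 (SE, adjusted p = 3.17e-06). VIM, the intermediate filament vimentin, fell by less, from 41424, 41867 and 40482 to 35136, 37681 and 36792 (-0.18 ± 0.04 SE, adjusted p = 0.00761). Against these, TAGLN, an actin-binding protein of smooth muscle, was at 791, 912 and 945 with vector and at 1646, 1964 and 1955 with deltaNp63alpha, a log2 fold change of 1.07 ± 0.09 (SE, adjusted p = 1.25e-05), and the hyaluronan receptor CD44 was at 0.39 ± 0.05 (SE, adjusted p = 0.000162). Without 1 library, between 2 and 4 members rose.

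Proteases and their inhibitors went both ways, 9 higher and 9 lower of 38, with a median log2 fold change of -0.05. SPINK5, a serine protease inhibitor of the epidermis, was at 13.1, 20.4 and 16.9 with vector and at 115, 128 and 152 with deltaNp63alpha, a log2 fold change of 2.91 ± 0.26 (SE, adjusted p = 1.75e-05). CSTA, a cysteine protease inhibitor of the cornified envelope, was at 480.2, 488 and 446 with vector and at 984, 959 and 1024 with deltaNp63alpha, a log2 fold change of 1.07 ± 0.11 (SE, adjusted p = 4.65e-05). The membrane proteases ST14 (1.04 ± 0.06) and MMP14 (0.71 ± 0.06) rose. PAPPA, a metalloprotease that cleaves insulin-like growth factor binding proteins, was at 184, 149.8 and 147 with vector and at 38.5, 35.9 and 23.5 with deltaNp63alpha, a log2 fold change of -2.28 ± 0.21 (SE, adjusted p = 2.42e-05). TIMP1, an inhibitor of matrix metalloproteases, was at 37282, 36783 and 36434 with vector and at 20833, 22511 and 22443 with deltaNp63alpha, a log2 fold change of -0.75 ± 0.05 (SE, adjusted p = 2.31e-06), and TIMP2 (-0.52 ± 0.06), PLAU (-0.58 ± 0.06) and SERPINA3 (-0.98 ± 0.08) fell as well. The other 20 members did not pass.

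Transcription factors of the squamous lineage showed no common direction, with 6 higher and 4 lower of 23 and a median of 0.06. SOX15, of the SOX family, was at 413, 385 and 431 with vector and at 889.9, 1129 and 1074 with deltaNp63alpha, a log2 fold change of 1.32 ± 0.09 (SE, adjusted p = 2.36e-06). HES2, of the HES family of repressors, was at 207, 162 and 229 with vector and at 493, 458 and 569.5 with deltaNp63alpha, a log2 fold change of 1.35 ± 0.13 (SE, adjusted p = 2.94e-05). TP73, the p53 family member closest to TP63, was low in both groups, at 42.8, 45.2 and 41.5 with vector and at 14.8, 28.9 and 19.0 with deltaNp63alpha, a log2 fold change of -1.06 ± 0.25 (SE, adjusted p = 0.0146). The count of lower factors was 2 without deltaNp63alpha library 1 or 2 or vector library 1 or 2, and those that lost the call in at least 1 such fit were ELF3 and TBX3.

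Differentiation genes of the upper epidermis were mostly too low to test. Of 42 cornified envelope genes matched, 15 were tested, 7 rose and 1 fell, and 8 were at 0 in all 6 libraries. The median was 0.03. S100A8 and S100A9, calcium-binding alarmins, are described with their family below. KRT80, a keratin of differentiating cells, was the member that fell, at 563, 558 and 606 with vector and at 205, 151 and 132 with deltaNp63alpha, a log2 fold change of -1.84 ± 0.16 (SE, adjusted p = 1.75e-05). Among barrier lipid genes 8 rose and 2 fell of 23, with a median of -0.02. NIPAL4, a putative magnesium transporter gene that is mutated in ichthyosis, was at 18.2, 15.5 and 27.7 with vector and at 168, 183 and 179 with deltaNp63alpha, a log2 fold change of 3.09 ± 0.22 (SE, adjusted p = 3.67e-06). ABCA12, the lipid transporter of lamellar granules, was at 659, 618 and 605 with vector and at 1269, 1209 and 1395 with deltaNp63alpha, a log2 fold change of 1.04 ± 0.08 (SE, adjusted p = 4.06e-06).

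The barrier list also holds eicosanoid genes. The cyclooxygenase genes rose, PTGS1 from 66.8, 63.7 and 56.4 to 202, 157 and 171 (1.48 ± 0.15 SE, adjusted p = 4.87e-05) and PTGS2 from 50.5, 75.3 and 60.1 to 129, 153 and 159 (1.25 ± 0.17 SE, adjusted p = 0.000484). ALOX5AP, which presents arachidonic acid to 5-lipoxygenase at the head of leukotriene synthesis, was at 217, 182 and 190.2 with vector and at 56.2, 61.6 and 43.8 with deltaNp63alpha, a log2 fold change of -1.86 ± 0.34 (SE, adjusted p = 0.00345). The leukotriene B4 receptor gene LTB4R2 was at 15.4, 16.9 and 15.5 with vector and at 75.8, 87.0 and 95.6 with deltaNp63alpha, a log2 fold change of 2.36 ± 0.19 (SE, adjusted p = 1.02e-05). LTB4R2 overlaps LTB4R on the same strand, and another gene ID carried the same values as LTB4R2 in every library, so its reads may belong to either.

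Of 16 luminal markers tested, 6 rose, 2 fell and 8 did not pass, with a median of 0.22. FOXA1, a luminal transcription factor, was at 87.8, 76.6 and 98.2 with vector and at 136, 177 and 155 with deltaNp63alpha, a log2 fold change of 0.83 ± 0.14 (SE, adjusted p = 0.00259). EPCAM was at 191, 162 and 165 with vector and at 345, 310.0 and 279 with deltaNp63alpha, a log2 fold change of 0.84 ± 0.10 (SE, adjusted p = 0.000223). KRT8, a keratin of simple epithelia, was at 5203, 5246 and 5421 with vector and at 4420.3, 4257 and 4199 with deltaNp63alpha, a log2 fold change of -0.30 ± 0.05 (SE, adjusted p = 0.00141), while its partner KRT18 did not pass the test, at 7125, 7028 and 7018 with vector and at 8114, 7659 and 7493 with deltaNp63alpha (0.14 ± 0.04 SE, adjusted p = 0.0597). KRT8 is 1 of the genes whose half-site before the start is printed above. The other member that fell, KRT19, was at -1.52 ± 0.46 (SE, adjusted p = 0.0472) and did not pass without any 1 of the deltaNp63alpha or vector libraries or deltaNp63beta library 2.

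The S100 family, small calcium-binding proteins most of which lie in 1 cluster on chromosome 1, split within the cluster. Of 13 tested, 6 rose and 3 fell, with a median of 0.31. S100A2 (chr1:153561108-153567890), a p63 target of basal cells, was at 29695, 29491 and 29645 with vector and at 80631, 91544 and 97313 with deltaNp63alpha. Its log2 fold change was 1.60 ± 0.09 (SE, adjusted p = 1.06e-06). S100A14 (chr1:153614255-153616986) was at 5824, 5579 and 5585 with vector and at 15250.3, 16487 and 16799 with deltaNp63alpha, a log2 fold change of 1.51 ± 0.05 (SE, adjusted p = 1.61e-08). Between S100A2 and S100A14 lies S100A16, at 15072, 14312 and 14507 with vector and at 14974, 16117 and 15602 with deltaNp63alpha, with a difference of 0.09 ± 0.05 (SE, adjusted p = 0.245) that did not pass.

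On the other side of S100A2, S100A4 (chr1:153543613-153550136), known from motile mesenchymal cells, was at 2195, 2159 and 2191 with vector and at 1013, 942 and 974 with deltaNp63alpha, a log2 fold change of -1.16 ± 0.06 (SE, adjusted p = 4.89e-07). S100A6 (chr1:153534599-153536244) was at 27812, 27844 and 27694 with vector and at 18815, 19106 and 20142 with deltaNp63alpha, a log2 fold change of -0.52 ± 0.06 (SE, adjusted p = 9.06e-05). Neighbouring genes of the cluster thus moved in opposite directions, and in each of the 4 called genes the groups were separated. S100A3, which overlaps S100A4 on the same strand, did not pass (0.32 ± 0.11 SE, adjusted p = 0.0942), so reads shared by the 2 genes could bear on either value. Farther along, S100A9 (chr1:153357854-153361027) was at 174, 141 and 134 with vector and at 435, 410.5 and 537 with deltaNp63alpha, a log2 fold change of 1.61 ± 0.15 (SE, adjusted p = 2.02e-05). S100A8 (chr1:153390032-153391188) was at 50.8, 35.1 and 41.5 with vector and at 103, 106 and 131 with deltaNp63alpha, a log2 fold change of 1.40 ± 0.20 (SE, adjusted p = 0.000779). S100A10 (0.31 ± 0.05) and S100A11 (0.37 ± 0.06), which lie apart from the others on the chromosome, rose by less. The other member that fell, S100A13, was at -0.29 ± 0.09 (SE, adjusted p = 0.0437) and did not pass without any 1 of the vector or deltaNp63alpha libraries.

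The list of EGF family ligands and ERBB signalling genes had 16 higher and 1 lower of 33, with a median of 0.31, and 5 ligands and the receptor EGFR were among those that rose. NRG1, a ligand of ERBB3 and ERBB4, was at 133, 176 and 133 with vector and at 386, 488 and 499.8 with deltaNp63alpha, a log2 fold change of 1.63 ± 0.19 (SE, adjusted p = 0.00012). HBEGF, a membrane-anchored EGFR ligand, was at 134, 129 and 132 with vector and at 293, 323 and 343 with deltaNp63alpha, a log2 fold change of 1.27 ± 0.10 (SE, adjusted p = 8.7e-06). Each of these ligands more than doubled. TGFA was at 1519.8, 1177 and 1328 with vector and at 2384, 2600.3 and 2627 with deltaNp63alpha, a log2 fold change of 0.93 ± 0.09 (SE, adjusted p = 2.42e-05). AREG, which encodes amphiregulin, was at 16533, 16928 and 16577 with vector and at 24287, 28227 and 29779.5 with deltaNp63alpha, a log2 fold change of 0.71 ± 0.08 (SE, adjusted p = 7e-05). EPGN, which encodes epigen, was at 1867, 1922 and 1828 with vector and at 2909, 2884 and 3063 with deltaNp63alpha, a log2 fold change of 0.66 ± 0.06 (SE, adjusted p = 1.71e-05). The groups did not overlap in any of these 5 ligands, as in 34% of all genes tested. NRG1 overlaps 3 other annotated genes on the same strand.

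Among the receptors, EGFR was at 10816, 10272 and 10967 with vector and at 14956, 14203 and 15493 with deltaNp63alpha, a log2 fold change of 0.48 ± 0.05 (SE, adjusted p = 3.67e-05). ERBB2 (-0.05 ± 0.06 SE, adjusted p = 0.617) and ERBB3 (0.30 ± 0.21 SE, adjusted p = 0.388) did not pass. The phosphatases DUSP5 (0.87 ± 0.08 SE, adjusted p = 1.6e-05) and DUSP6 (0.73 ± 0.08 SE, adjusted p = 7.2e-05), which switch off ERK, rose, as did DUSP7 (0.72 ± 0.04), PHLDA1 (0.78 ± 0.05), FOSL1 (0.53 ± 0.05) and EGR1 (0.65 ± 0.09). DUSP4 was the member that fell, at 5966, 6151 and 6182 with vector and at 5198, 5037 and 5013 with deltaNp63alpha, a log2 fold change of -0.26 ± 0.06 (SE, adjusted p = 0.00866). Both groups grew in medium with epidermal growth factor. Between 13 and 15 members rose in the fits that left out 1 library.

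**Figure D3:**
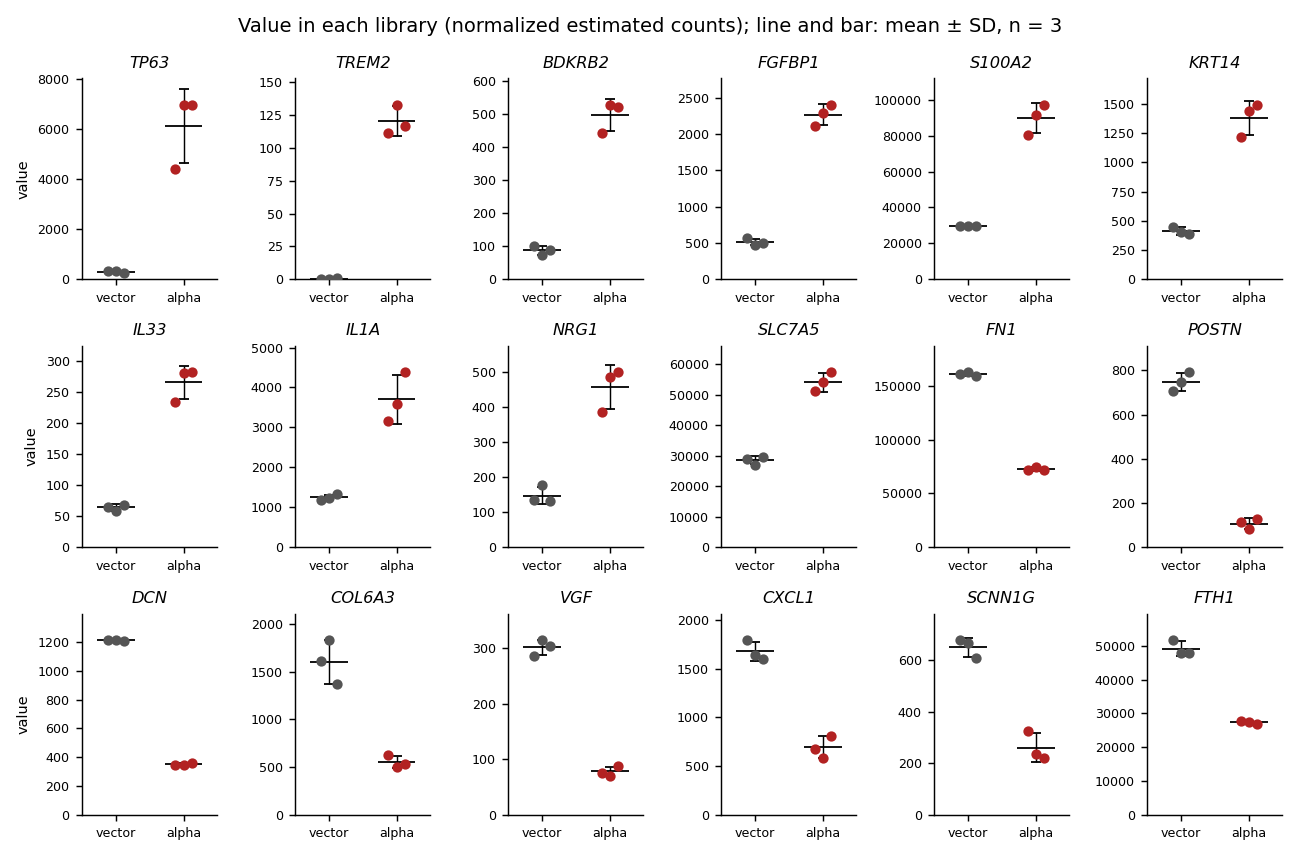
For 18 genes, each panel shows the value in each of the 3 vector and 3 deltaNp63alpha libraries (normalized estimated counts), with a line and bar for the mean ± SD (n = 3). In every panel the 2 groups are separated, as in 34% of all genes tested, and deltaNp63alpha library 1 has the lowest TP63 value of its group.

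FGF, IGF and Eph genes had 5 higher and 8 lower of 30, with a median of -0.13. FGFBP1, a secreted carrier that releases fibroblast growth factors from matrix, was at 561, 473 and 501 with vector and at 2111, 2286 and 2403 with deltaNp63alpha, a log2 fold change of 2.15 ± 0.08 (SE, adjusted p = 3.85e-08). FGFR3, a receptor, was at 90.8, 67.5 and 72.9 with vector and at 134, 260.0 and 287 with deltaNp63alpha, a log2 fold change of 1.48 ± 0.26 (SE, adjusted p = 0.00267). The ligand FGF2 was at 1684, 1721 and 1653 with vector and at 754, 704 and 769 with deltaNp63alpha, a log2 fold change of -1.18 ± 0.07 (SE, adjusted p = 8.02e-07). FGFBP1 and FGFR3 were higher while FGF2 was lower. The ephrin ligands were also unequal. EFNB1 was at 1649, 1655 and 1733 with vector and at 3779, 4417 and 4271 with deltaNp63alpha, a log2 fold change of 1.30 ± 0.07 (SE, adjusted p = 2.47e-07), and EFNB2 was at 5604, 5849.5 and 5574 with vector and at 4351, 4273 and 4547 with deltaNp63alpha, a log2 fold change of -0.37 ± 0.05 (SE, adjusted p = 0.000207). EPHA1, an Eph receptor, rose (1.20 ± 0.20 SE, adjusted p = 0.00161).

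In the Notch list 7 rose and 3 fell of 21, with a median of 0.10, and 4 rose without deltaNp63alpha library 1 or 3 or vector library 2. The ligands JAG1 (at 1261, 1278 and 1398 with vector and at 2186, 2284 and 2436 with deltaNp63alpha) and JAG2 (at 1876, 1633 and 1903 with vector and at 2748, 2953 and 2598 with deltaNp63alpha) rose by 0.81 ± 0.06 and 0.62 ± 0.07 on the log2 scale. Of the receptors, NOTCH1 rose (0.55 ± 0.07 SE, adjusted p = 0.000249) and NOTCH2 fell (-0.32 ± 0.05 SE, adjusted p = 0.00229). NOTCH2 was the member that kept its lower call in each of the fits. The count of lower members was 1 without deltaNp63alpha library 2 or 3 or vector library 2 or 3.

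Of 32 Wnt genes, 8 rose and 3 fell, with a median of 0.09. The number that rose was 4 without deltaNp63alpha library 1, 3 without deltaNp63alpha library 3 and 5 without vector library 1 or 3. Ligands differed. WNT7A was at 113, 97.7 and 89.5 with vector and at 237, 219 and 201 with deltaNp63alpha, a log2 fold change of 1.13 ± 0.13 (SE, adjusted p = 0.00015), and WNT5A was at 729, 785 and 855 with vector and at 349, 348 and 440.3 with deltaNp63alpha, a log2 fold change of -1.06 ± 0.12 (SE, adjusted p = 9.98e-05). DKK1, a secreted Wnt inhibitor, was at 6041, 5480.2 and 5437 with vector and at 3089, 2599.9 and 2505 with deltaNp63alpha, a log2 fold change of -1.05 ± 0.10 (SE, adjusted p = 3.05e-05), while KREMEN1, the receptor that acts with it, rose (0.94 ± 0.10 SE, adjusted p = 7e-05). RNF43, a membrane ubiquitin ligase that removes Wnt receptors, rose (0.95 ± 0.15 SE, adjusted p = 0.0015).

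TGF-beta and BMP genes had 5 higher and 6 lower of 42, with a median of -0.06, and 3 were lower without deltaNp63alpha library 3 or vector library 1 or 2. FST, which encodes the activin trap follistatin, was at 23.4, 26.1 and 22.2 with vector and at 61.9, 66.2 and 73.1 with deltaNp63alpha, a log2 fold change of 1.45 ± 0.18 (SE, adjusted p = 0.000256). SKIL, a repressor of SMAD signalling, was at 1119, 1049 and 1104 with vector and at 574, 674 and 728 with deltaNp63alpha, a log2 fold change of -0.73 ± 0.12 (SE, adjusted p = 0.00168). YAP and TEAD targets had 6 in each direction of 29, with a median of 0.02. AJUBA (0.70 ± 0.05 SE, adjusted p = 3.46e-06) and AMOTL1 (0.56 ± 0.05 SE, adjusted p = 3.07e-05), both of which bind LATS or YAP, rose, and AXL (-0.38 ± 0.04 SE, adjusted p = 0.000167), a receptor tyrosine kinase, fell. Of 30 semaphorin, plexin and neuropilin genes, 7 rose and 3 fell, with a median of 0.07, and 1 was lower without deltaNp63alpha library 1 or 3 or any 1 vector library. PLXNB1, a semaphorin receptor, rose (0.57 ± 0.11 SE, adjusted p = 0.00519) and NRP1, a co-receptor, fell (-0.37 ± 0.07 SE, adjusted p = 0.00351).

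Of 23 IL1 family, inflammasome and cell death genes, 9 rose, 2 fell and 12 did not pass, with a median log2 fold change of 0.18. The same 11 kept their calls whichever library was left out. IL1A, a cytokine stored in epithelial cells, was at 1187, 1224 and 1318 with vector and at 3149, 3575 and 4377 with deltaNp63alpha, a log2 fold change of 1.56 ± 0.10 (SE, adjusted p = 1.57e-06). IL1B was at 596, 617 and 693 with vector and at 1781, 1917 and 2639 with deltaNp63alpha, a log2 fold change of 1.71 ± 0.13 (SE, adjusted p = 7.3e-06). IL33, a nuclear alarmin, was at 64.6, 58.5 and 68.3 with vector and at 234, 280.2 and 281 with deltaNp63alpha, a log2 fold change of 2.04 ± 0.19 (SE, adjusted p = 2.72e-05). In all 3 cytokines every deltaNp63alpha library exceeded every vector library, which for IL1B and IL33 was a condition of their rank among the largest rises. NLRP3, the sensor of an inflammasome, was at 4.05, 20.4 and 6.81 with vector and at 114, 166 and 175 with deltaNp63alpha, a log2 fold change of 3.99 ± 0.44 (SE, adjusted p = 9.62e-05). CASP1, the protease that matures IL1B, was at 459.8, 461 and 437 with vector and at 616, 671 and 644 with deltaNp63alpha, a log2 fold change of 0.51 ± 0.08 (SE, adjusted p = 0.00151).

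The 2 members that fell were IL1R1 and GSDMD. IL1R1, the signalling receptor for IL1A and IL1B, was at 756, 801 and 677 with vector and at 368, 394 and 410.1 with deltaNp63alpha, a log2 fold change of -0.93 ± 0.09 (SE, adjusted p = 4.24e-05). IL1RAP, its accessory chain, was at 609, 679.6 and 682 with vector and at 950.1, 968 and 1072 with deltaNp63alpha, a log2 fold change of 0.60 ± 0.09 (SE, adjusted p = 0.000843). The pore genes GSDMA (2.13 ± 0.47 SE, adjusted p = 0.0101) and GSDME (0.75 ± 0.06 SE, adjusted p = 7.94e-06) rose. GSDMD, the gasdermin cut by CASP1, was at 131, 124 and 164 with vector and at 66.7, 49.1 and 53.6 with deltaNp63alpha, a log2 fold change of -1.29 ± 0.22 (SE, adjusted p = 0.00229). IL18, another CASP1 substrate, did not pass (0.18 ± 0.06 SE, adjusted p = 0.0869). IL1RAP overlaps 3 other genes on the same strand.

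Of 34 chemokine, cytokine and NF-kB genes, 5 rose, 7 fell and 22 did not pass, with a median of -0.05. CXCL1, a neutrophil chemokine, was at 1792, 1638 and 1599 with vector and at 679, 588 and 814 with deltaNp63alpha, a log2 fold change of -1.28 ± 0.10 (SE, adjusted p = 8.05e-06). CXCL8, another, was at 1550.1, 1565 and 1454 with vector and at 828, 908 and 1193 with deltaNp63alpha, a log2 fold change of -0.66 ± 0.11 (SE, adjusted p = 0.00178). BIRC3, an NF-kB target that inhibits cell death, was at 1850.0, 1999.5 and 2197 with vector and at 1011, 783 and 766 with deltaNp63alpha, a log2 fold change of -1.25 ± 0.11 (SE, adjusted p = 2.18e-05). IL6 was low throughout, at 21.0, 13.6 and 21.6 with vector and at 3.28, 1.59 and 1.75 with deltaNp63alpha, a log2 fold change of -2.63 ± 0.55 (SE, adjusted p = 0.00782). CXCL3 (-0.82 ± 0.16) and TNFAIP2 (-0.59 ± 0.13) fell too. The number that rose was 2 without deltaNp63alpha library 1 or 2 or vector library 2, and 3 without vector library 1 or 3.

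Of 45 interferon-stimulated genes 5 fell and 1 rose, with a median of -0.08. The share called, 13.3%, is close to the 15% of all genes tested. IFI44L was at 447, 455 and 446 with vector and at 238, 170.1 and 185 with deltaNp63alpha, a log2 fold change of -1.19 ± 0.13 (SE, adjusted p = 7.04e-05). BST2, which encodes tetherin, was at 1231, 1238 and 1239 with vector and at 844, 875 and 865 with deltaNp63alpha, a log2 fold change of -0.52 ± 0.06 (SE, adjusted p = 0.000124). IRF1, a transcription factor of the response, was at 499, 670.1 and 688 with vector and at 304, 387 and 355 with deltaNp63alpha, a log2 fold change of -0.82 ± 0.13 (SE, adjusted p = 0.00146). Most of the list, 39 genes, did not pass. In the list of class I presentation and complement genes, 7 fell and 1 rose of 29, with a median of -0.11. NLRC5, the transactivator of class I genes, was at 192, 217 and 199 with vector and at 76.0, 96.6 and 68.5 with deltaNp63alpha, a log2 fold change of -1.34 ± 0.22 (SE, adjusted p = 0.00154). The complement genes C3 (at 18737, 18334 and 17565 with vector and at 13871, 14019.8 and 13491 with deltaNp63alpha, a log2 fold change of -0.40 ± 0.05 SE, adjusted p = 0.000409) and C1S (-1.07 ± 0.20 SE, adjusted p = 0.00427) fell. Without vector library 1, 2 members of that list rose.

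Of 41 genes in the list of NRF2 antioxidant and iron genes, 16 fell, 3 rose and 22 did not pass, with a median of -0.19. FTH1 and FTL, the subunits of the iron store ferritin, both fell. FTH1 was at 51671, 47993 and 47988 with vector and at 27625, 27589 and 26804 with deltaNp63alpha, a log2 fold change of -0.85 ± 0.04 (SE, adjusted p = 1.35e-07). FTL was at 11636, 11131 and 11549.5 with vector and at 7690.2, 7637 and 7291 with deltaNp63alpha, a log2 fold change of -0.60 ± 0.04 (SE, adjusted p = 4.37e-06). TFRC, the transferrin receptor that brings iron in, was at 7036, 7004 and 7512 with vector and at 5185, 5178 and 5394 with deltaNp63alpha, a log2 fold change of -0.45 ± 0.04 (SE, adjusted p = 3.71e-05). In all 3 of these iron genes the values were lower with deltaNp63alpha. Reads of ferritin genes can be shared with processed copies, and how these were counted is not given in the sources used here. Among NRF2 targets, SQSTM1 (-0.74 ± 0.06 SE, adjusted p = 1.48e-05), TXNRD1 (-0.69 ± 0.08 SE, adjusted p = 9.02e-05), AKR1B1 (-0.53 ± 0.05 SE, adjusted p = 1.71e-05) and the transporter ABCC3 (-0.96 ± 0.10 SE, adjusted p = 5.03e-05) fell. AKR1C2 was at 1506, 1233 and 1529 with vector and at 671, 610.0 and 603 with deltaNp63alpha, a log2 fold change of -1.17 ± 0.08 (SE, adjusted p = 3.17e-06), and has near-identical neighbours. The 3 members that rose were SLC7A11, GCLC and SRXN1. SLC7A11, the cystine transporter, was at 1134, 1099.8 and 1231 with vector and at 1537, 1492 and 1789 with deltaNp63alpha, a log2 fold change of 0.47 ± 0.07 (SE, adjusted p = 0.00116), and kept its call in every fit that left out 1 library. GCLC, the catalytic subunit of the enzyme that starts glutathione synthesis, was at 0.18 ± 0.05 (SE, adjusted p = 0.0403), and SRXN1, which encodes sulfiredoxin, at 0.20 ± 0.05 (SE, adjusted p = 0.0171). SRXN1 did not pass without deltaNp63alpha library 1 or 3 or vector library 1, and GCLC without deltaNp63alpha library 1 or 3, deltaNp63beta library 2 or any 1 of the vector libraries. GCLC also did not pass with libraries scaled to equal totals. The number that rose was 1 without deltaNp63alpha library 1 or 3 or vector library 1.

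Of 45 genes in a list that joins amino acid transporters and the integrated stress response, 19 rose, 8 fell and 18 did not pass, with a median of 0.18. SLC7A5, the light chain of the large neutral amino acid transporter LAT1, was at 28954, 26966 and 29619 with vector and at 51065, 54119 and 57329 with deltaNp63alpha, a log2 fold change of 0.93 ± 0.05 (SE, adjusted p = 4.46e-07). SLC3A2, its heavy chain, was at 7732, 7374 and 8284 with vector and at 13125, 13332 and 14189.5 with deltaNp63alpha, a log2 fold change of 0.80 ± 0.05 (SE, adjusted p = 7.01e-07). SLC1A5, a glutamine transporter, was at 4693, 4713 and 4939.8 with vector and at 6558, 7178 and 6719.7 with deltaNp63alpha, a log2 fold change of 0.51 ± 0.04 (SE, adjusted p = 1.6e-05). The groups did not overlap for both LAT1 chains and the glutamine transporter, as in 34% of all genes tested. SLC7A1, a carrier of cationic amino acids, rose by less (0.32 ± 0.04 SE, adjusted p = 0.00029).

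The list also holds targets of the transcription factor ATF4. ASNS, which makes asparagine, was at 566, 573 and 511 with vector and at 814, 809 and 997 with deltaNp63alpha, a log2 fold change of 0.66 ± 0.09 (SE, adjusted p = 0.000304). CHAC1, which degrades glutathione, was at 36.4, 36.4 and 21.6 with vector and at 104, 100.3 and 128 with deltaNp63alpha, a log2 fold change of 1.82 ± 0.23 (SE, adjusted p = 0.000252), and TRIB3, a feedback inhibitor, rose by 0.71 ± 0.04 on that scale. ATF4 itself rose slightly (0.19 ± 0.04 SE, adjusted p = 0.00925). ATF3 was at 930.0, 775 and 977 with vector and at 449, 316 and 380.1 with deltaNp63alpha, a log2 fold change of -1.23 ± 0.14 (SE, adjusted p = 0.000114), and DDIT3, which encodes CHOP, was at 179.5, 200.4 and 178 with vector and at 86.7, 103 and 103 with deltaNp63alpha, a log2 fold change of -0.93 ± 0.16 (SE, adjusted p = 0.00215). ATF3 and DDIT3 were thus lower while ASNS, CHAC1 and TRIB3 were higher. Among genes that act in the endoplasmic reticulum, the chaperone genes HSPA5 and HSP90B1 fell, HSPA5 from 48867, 48032 and 46459 to 37343, 34443 and 33278 (-0.45 ± 0.05 SE, adjusted p = 7e-05) and HSP90B1 from 49047, 49565 and 47643 to 38207, 35058 and 34898 (-0.44 ± 0.04 SE, adjusted p = 2.09e-05). P4HB, a disulfide isomerase, fell as well (-0.47 ± 0.04 SE, adjusted p = 1.25e-05), and XBP1, a factor of the unfolded protein response, rose (0.26 ± 0.05 SE, adjusted p = 0.00383).

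**Figure D4:**
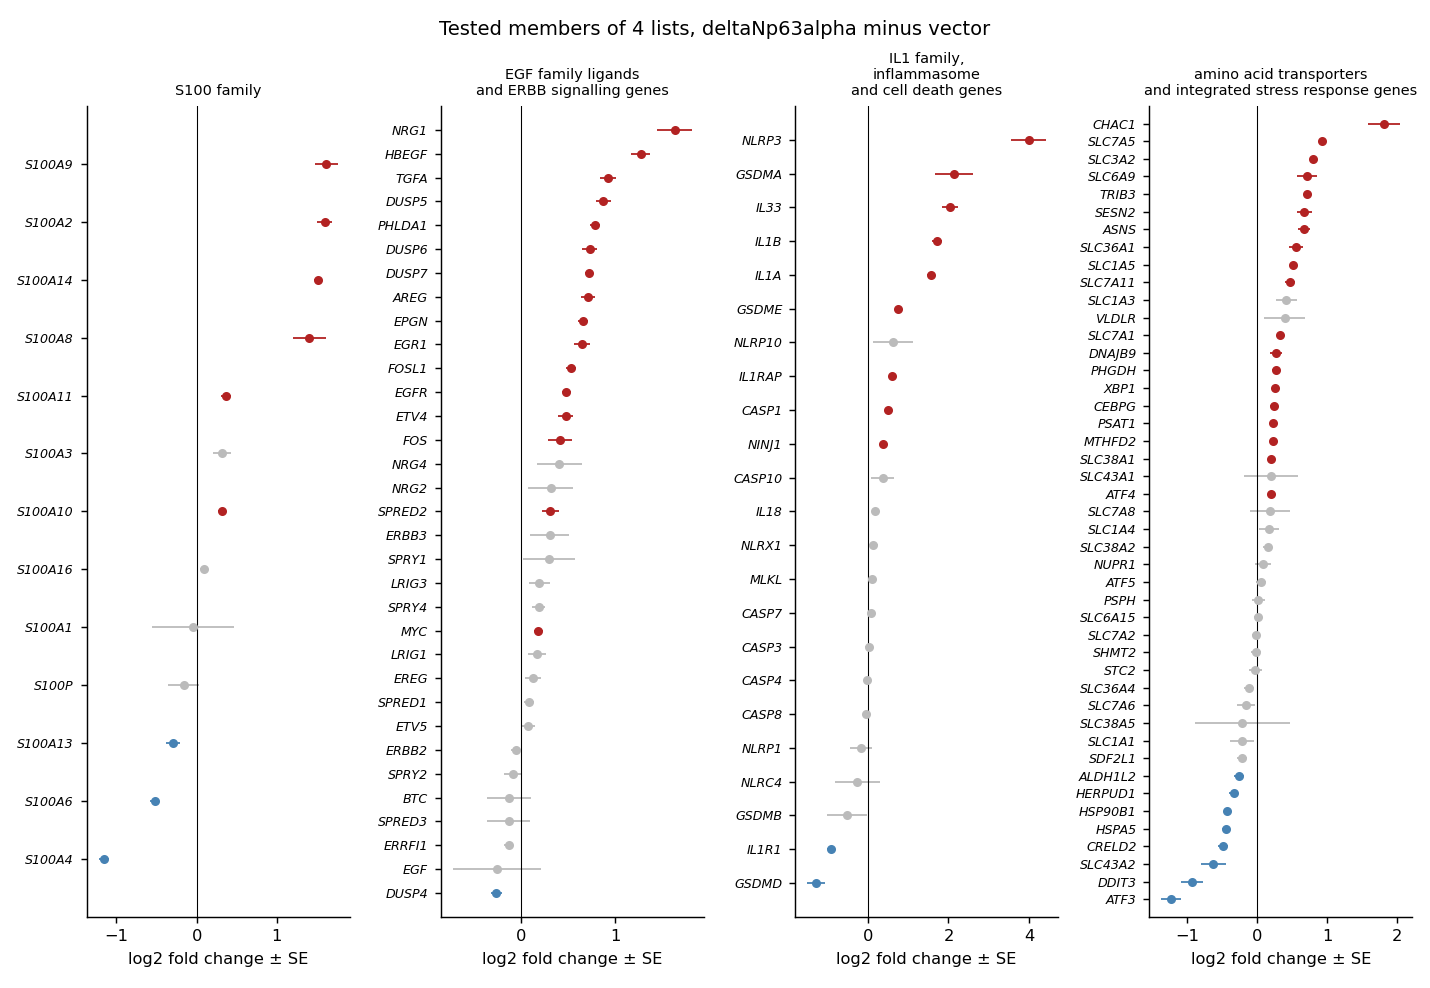
Points give the log2 fold change (deltaNp63alpha minus vector, x axis) and bars the SE for each tested member of the S100, EGF, interleukin 1 and amino acid lists, coloured by call. In each of the 4 panels called genes stand on both sides of 0, with S100A4 and S100A6, DUSP4, IL1R1 and GSDMD, and ATF3 and DDIT3 on the lower side.

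Of 43 sterol and fatty acid synthesis genes, 8 rose and 5 fell, with a median of 0.01. The number that rose was 5 without deltaNp63alpha library 1 or vector library 3, and 9 fell without deltaNp63alpha library 1. The desaturases of 1 cluster on chromosome 11 moved apart. FADS1 was at 3944, 3501 and 3813 with vector and at 2432, 2517 and 2819 with deltaNp63alpha, a log2 fold change of -0.54 ± 0.06 (SE, adjusted p = 0.000157), and FADS2 was at 4394, 4137 and 4132 with vector and at 3276, 2926 and 3201 with deltaNp63alpha, a log2 fold change of -0.43 ± 0.06 (SE, adjusted p = 0.000896). FADS3 was at 875, 739.8 and 848 with vector and at 1378, 1804 and 1649 with deltaNp63alpha, a log2 fold change of 0.97 ± 0.10 (SE, adjusted p = 5.51e-05). FADS1 and FADS2 make polyunsaturated fatty acids, and their gene bodies overlap other genes on their own strands.

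Of 45 glycolysis and hypoxia genes, 9 rose and 5 fell, with a median of 0.09. CA2 and CA12, carbonic anhydrases, rose from 103, 99.3 and 77.2 to 231, 235 and 286 (1.42 ± 0.13 SE, adjusted p = 2.17e-05) and from 1133, 1066 and 1117 to 2119, 2154 and 2116 (0.95 ± 0.06 SE, adjusted p = 1.38e-06). NDRG1, a hypoxia-responsive gene, was at 3727, 3648 and 3639 with vector and at 6095, 6471 and 6913 with deltaNp63alpha, a log2 fold change of 0.82 ± 0.05 (SE, adjusted p = 7.01e-07). EPAS1, which encodes HIF-2 alpha, rose (0.54 ± 0.06 SE, adjusted p = 0.000152). The number that fell was 3 without deltaNp63alpha library 1, 1 without deltaNp63alpha library 2 or 3 or vector library 1 or 2, and 0 without vector library 3.

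Of 52 DNA replication and mitosis genes 5 rose and 2 fell, 13.5% against 15% of all genes tested, with a median of 0.05, and all log2 fold changes lay between -0.29 and 0.33. The number that rose was 3 without vector library 1 and 8 without deltaNp63beta library 1, and 1 fell without deltaNp63alpha library 2 or 3, deltaNp63beta library 2 or vector library 1 or 3. PCNA, the sliding clamp, was at 4484, 4564 and 4698 with vector and at 5431, 5331 and 5361 with deltaNp63alpha, a log2 fold change of 0.23 ± 0.04 (SE, adjusted p = 0.00266). Of 44 genes of G1 control and p53 response, 11 rose and 6 fell (38.6%), with a median of 0.05. TP53I3, a p53 target, was at 2194, 2131 and 2238 with vector and at 1118, 1134 and 1049 with deltaNp63alpha, a log2 fold change of -0.99 ± 0.06 (SE, adjusted p = 5.23e-07). CDKN1C, an inhibitor of cyclin-dependent kinases, was at 163, 181 and 198 with vector and at 73.2, 76.7 and 69.4 with deltaNp63alpha, a log2 fold change of -1.29 ± 0.16 (SE, adjusted p = 0.000213). Other p53 targets rose, among them BTG2 (0.63 ± 0.09 SE, adjusted p = 0.00069), DDB2 (0.53 ± 0.08 SE, adjusted p = 0.00139) and PHLDA3 (0.40 ± 0.06 SE, adjusted p = 0.000887).

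None of 76 ribosomal protein genes passed limma's test, and 1 had an unadjusted p under 0.05, with log2 fold changes between -0.23 and 0.09. Of 63 nuclear-encoded respiratory chain subunits 1 rose, SDHA (0.21 ± 0.05 SE, adjusted p = 0.0137), and it did not pass without deltaNp63alpha library 2 or vector library 2 or 3. Without deltaNp63beta library 3, 2 rose and 2 fell.

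Channels and G protein-coupled receptors gave 13 higher and 5 lower of 43, with a median of 0.35. BDKRB2, the bradykinin B2 receptor, was at 99.5, 74.1 and 86.8 with vector and at 441, 528 and 519 with deltaNp63alpha, a log2 fold change of 2.51 ± 0.13 (SE, adjusted p = 2.58e-07). It overlaps 3 other genes on the same strand. P2RY2, a receptor for extracellular ATP and UTP, was at 153, 184 and 161 with vector and at 412, 435 and 422 with deltaNp63alpha, a log2 fold change of 1.35 ± 0.10 (SE, adjusted p = 5.48e-06). PTAFR, the receptor for platelet-activating factor, is not counted in this list and was named for its large rise. It was at 196, 243 and 235 with vector and at 895, 906 and 900.1 with deltaNp63alpha, a log2 fold change of 2.0 ± 0.09 (SE, adjusted p = 9.9e-08). Each of the 3 receptors at least doubled. FPR1, the formyl peptide receptor, moved the other way, at 126, 98.0 and 101 with vector and at 23.9, 26.6 and 26.8 with deltaNp63alpha, a log2 fold change of -2.02 ± 0.20 (SE, adjusted p = 4.23e-05). Subunits of the epithelial sodium channel also differed. SCNN1B was at 114, 85.4 and 102 with vector and at 33.8, 19.0 and 18.3 with deltaNp63alpha, a log2 fold change of -2.09 ± 0.26 (SE, adjusted p = 0.000251), and SCNN1G was at 676, 664 and 608 with vector and at 323, 236 and 222 with deltaNp63alpha, a log2 fold change of -1.34 ± 0.13 (SE, adjusted p = 4.48e-05). SCNN1A did not pass, at 4620.2, 4577 and 4738 with vector and at 4815, 4945 and 5178 with deltaNp63alpha (0.10 ± 0.06 SE, adjusted p = 0.333).

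Of the genes with a mean under 10 with vector and at least 50 with deltaNp63alpha, 4 were called, and none was called in the opposite case. These genes were chosen for their difference in level, so their values are given as a description. TREM2, a lipid receptor best known from macrophages and microglia, was at 0, 0 and 1.17 with vector and at 111, 133 and 117 with deltaNp63alpha. ARHGAP25, a Rac regulator, was at 8.18, 13.4 and 6.78 with vector and at 113, 142 and 156 with deltaNp63alpha. MRGPRX3, a receptor of keratinocytes and sensory neurons, was at 5.79, 4.51 and 5.28 with vector and at 63.7, 101 and 131 with deltaNp63alpha, and FOLR3, a secreted folate receptor, was at 5.57, 10.1 and 10.5 with vector and at 70.7, 100.2 and 119.6 with deltaNp63alpha. Of the 10 leukocyte markers given above, TYROBP, which encodes the signalling partner of TREM2, was at 0, and 5 were detected, of which 2 fell and none rose.

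The other genes with large changes belong to no single list. Among those that rose, LAD1, which encodes an anchoring filament protein of the basement membrane, was at 645, 691 and 664 with vector and at 2359.6, 2509 and 2657 with deltaNp63alpha, a log2 fold change of 1.91 ± 0.06 (SE, adjusted p = 1.41e-08). PTHLH, a parathyroid hormone-like peptide of keratinocytes, was at 121, 139.5 and 139 with vector and at 446, 505 and 487 with deltaNp63alpha, a log2 fold change of 1.84 ± 0.11 (SE, adjusted p = 1.29e-06). FAT2, an atypical cadherin of epithelia, was at 672, 705 and 594 with vector and at 2208, 2326 and 2073 with deltaNp63alpha, a log2 fold change of 1.75 ± 0.08 (SE, adjusted p = 2.09e-07). These 3 genes stood at least 3-fold higher by their means. DOK7 (2.33 ± 0.22), an adaptor of the muscle kinase MuSK, CFAP251 (2.01 ± 0.08), a protein of cilia and flagella, TINAGL1 (1.74 ± 0.07), a matrix protein, and FXYD3 (1.80 ± 0.17), a regulator of the sodium pump, were also among the 15 largest rises. This ranking held called genes with a mean of at least 100, groups that did not overlap and a call kept without each library. Larger rises in genes at lower levels, such as NIPAL4, SPINK5 and NLRP3, were outside it. SDC1, a heparan sulfate proteoglycan of epithelia, was at 7317, 6825 and 6898 with vector and at 16295, 18662 and 19049 with deltaNp63alpha, a log2 fold change of 1.36 ± 0.06 (SE, adjusted p = 8.34e-08).

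Among those that fell, VGF, a neuropeptide precursor, was at 286, 315 and 304 with vector and at 76.1, 70.7 and 87.4 with deltaNp63alpha, a log2 fold change of -1.94 ± 0.18 (SE, adjusted p = 2.19e-05). ANGPT1, a ligand of the endothelial receptor TEK, was at 180.5, 201 and 214 with vector and at 57.4, 47.0 and 58.8 with deltaNp63alpha, a log2 fold change of -1.85 ± 0.29 (SE, adjusted p = 0.00121). ROS1, a receptor tyrosine kinase, was at 2775, 2893 and 2533 with vector and at 1106, 947 and 980.5 with deltaNp63alpha, a log2 fold change of -1.43 ± 0.08 (SE, adjusted p = 7.01e-07). These 3 genes were among the 15 largest falls. That ranking held called genes with a mean of at least 100, groups that did not overlap and a call kept without each library. Separation of the groups was thus fixed by the choice. Larger falls than these in genes at lower levels, such as PAPPA, FPR1 and SCNN1B, were outside it. The matrix genes SNED1 (-1.73 ± 0.24) and FBN1 (-1.54 ± 0.16), the adhesion molecule CADM3 (-1.71 ± 0.10) and the actin-binding NEBL (-1.58 ± 0.13) were also among the 15 largest falls. So were the clock repressor BHLHE41 (-1.74 ± 0.35) and GFPT2 (-1.52 ± 0.14), an enzyme of hexosamine synthesis. Some large changes in level were small in proportion. MT2A, a metallothionein, was at 0.42 ± 0.07 (SE, adjusted p = 0.00255), ANXA2 at 0.27 ± 0.03 (SE, adjusted p = 8.85e-05) and ANPEP, an aminopeptidase, at -0.63 ± 0.07 (SE, adjusted p = 6.07e-05). After quantile normalization ANXA2 no longer passed (0.08, adjusted p = 0.25), KRT81 turned from -0.20 ± 0.05 (SE, adjusted p = 0.0108) to 0.33 (adjusted p = 0.0119), and EEF1A1 moved from -0.09 ± 0.03 (SE, adjusted p = 0.0472) to 0. EEF1A1 also did not pass without deltaNp63alpha library 2 or 3, deltaNp63beta library 2 or any 1 of the vector libraries.

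Set directly against the deltaNp63beta libraries, 4911 genes (33.3%) differed between the isoforms. This contrast and the one with vector share the deltaNp63alpha libraries. Of the 2208 genes called with deltaNp63alpha, 1250 differed between the isoforms and 958 did not pass that test. Of the 1250, 688 lay farther in the same direction with deltaNp63beta and 562 lay on the other side of the deltaNp63alpha value. TP63 did not pass between the isoforms (6719, 4183 and 4870.0 with deltaNp63beta), with a difference, deltaNp63beta minus deltaNp63alpha, of -0.22 ± 0.22 (SE, adjusted p = 0.477) on the log2 scale.

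Several genes that rose with deltaNp63alpha were higher with it than with deltaNp63beta. S100A2 was at 67664, 61781 and 50744 with deltaNp63beta, a difference of -0.59 ± 0.09 (SE, adjusted p = 0.000693). LAMB3 was at 31428, 35476 and 36293, a difference of -0.99 ± 0.06 (SE, adjusted p = 3.15e-07), and LAMA3 at 29186, 32427 and 32029, a difference of -0.58 ± 0.04 (SE, adjusted p = 2.98e-06). Both laminin chains were lower with deltaNp63beta than with deltaNp63alpha. By its mean LAMB3 was also below vector (34399 with deltaNp63beta, 48990 with vector). LAMA3 stayed above vector (31214 with deltaNp63beta, 25228 with vector). The difference between deltaNp63beta and vector was not tested. IL33 was at 116, 70.2 and 86.4, a difference of -1.56 ± 0.19 (SE, adjusted p = 0.000104). TREM2, chosen for its level with deltaNp63alpha, was at 40.9, 27.5 and 36.4, and FOLR3, chosen likewise, at a mean of 13.2. The ERK phosphatase DUSP6 was at 1467, 1458 and 1664, a difference of -1.33 ± 0.08 (SE, adjusted p = 3.32e-07), and AREG at 10387, 10307 and 8847, a difference of -1.48 ± 0.08 (SE, adjusted p = 1.27e-07). For both genes this difference was larger than the rise with deltaNp63alpha. The AREG mean was 9847 with deltaNp63beta and 16679 with vector.

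Other genes moved farther with deltaNp63beta. KRT14 was at 9886, 6866 and 7275, a difference of 2.52 ± 0.13 (SE, adjusted p = 1.26e-07), and KRT17 at 78837, 72325 and 72348, a difference of 2.16 ± 0.05 (SE, adjusted p = 8.42e-10). FXYD3 was at 1536, 1564 and 1201, a difference of 2.42 ± 0.17 (SE, adjusted p = 1.66e-06). These keratins and FXYD3 were at least 4-fold higher by their means with deltaNp63beta than with deltaNp63alpha. FN1 was at 10055, 10531 and 11422, a difference of -2.77 ± 0.04 (SE, adjusted p = 1.75e-11), and COL6A3 at 72.0, 70.2 and 84.6, a difference of -2.85 ± 0.13 (SE, adjusted p = 5.29e-08). Both matrix genes were lower still with deltaNp63beta.

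Some genes were lower with deltaNp63alpha than in either other group. CXCL1 was at 1469.6, 1550.4 and 1616 with deltaNp63beta, a difference of 1.17 ± 0.10 (SE, adjusted p = 7.96e-06). SCNN1B was at 79.1, 109 and 94.3, a difference of 1.99 ± 0.26 (SE, adjusted p = 0.000175), and BIRC3 at 2639, 2312 and 2882, a difference of 1.62 ± 0.11 (SE, adjusted p = 1.42e-06). In each of these 3 genes the deltaNp63alpha libraries were the lowest of the 3 groups. FTH1 was at 36892, 39257 and 39174, between the other groups, a difference of 0.49 ± 0.04 (SE, adjusted p = 3.63e-06). TP73 was at 441, 308 and 319, a difference of 4.06 ± 0.25 (SE, adjusted p = 5.19e-07). Other changes did not pass between isoforms. DOK7 differed by -0.01 ± 0.22 (SE, adjusted p = 0.973), TINAGL1 by 0.07 ± 0.07 (SE, adjusted p = 0.494), KRT6A by -0.09 ± 0.04 (SE, adjusted p = 0.069), ROS1 by 0.11 ± 0.08 (SE, adjusted p = 0.331) and WNT5A by -0.01 ± 0.12 (SE, adjusted p = 0.95). A p above the threshold does not show that the isoforms act alike on these genes.

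**Figure D5:**
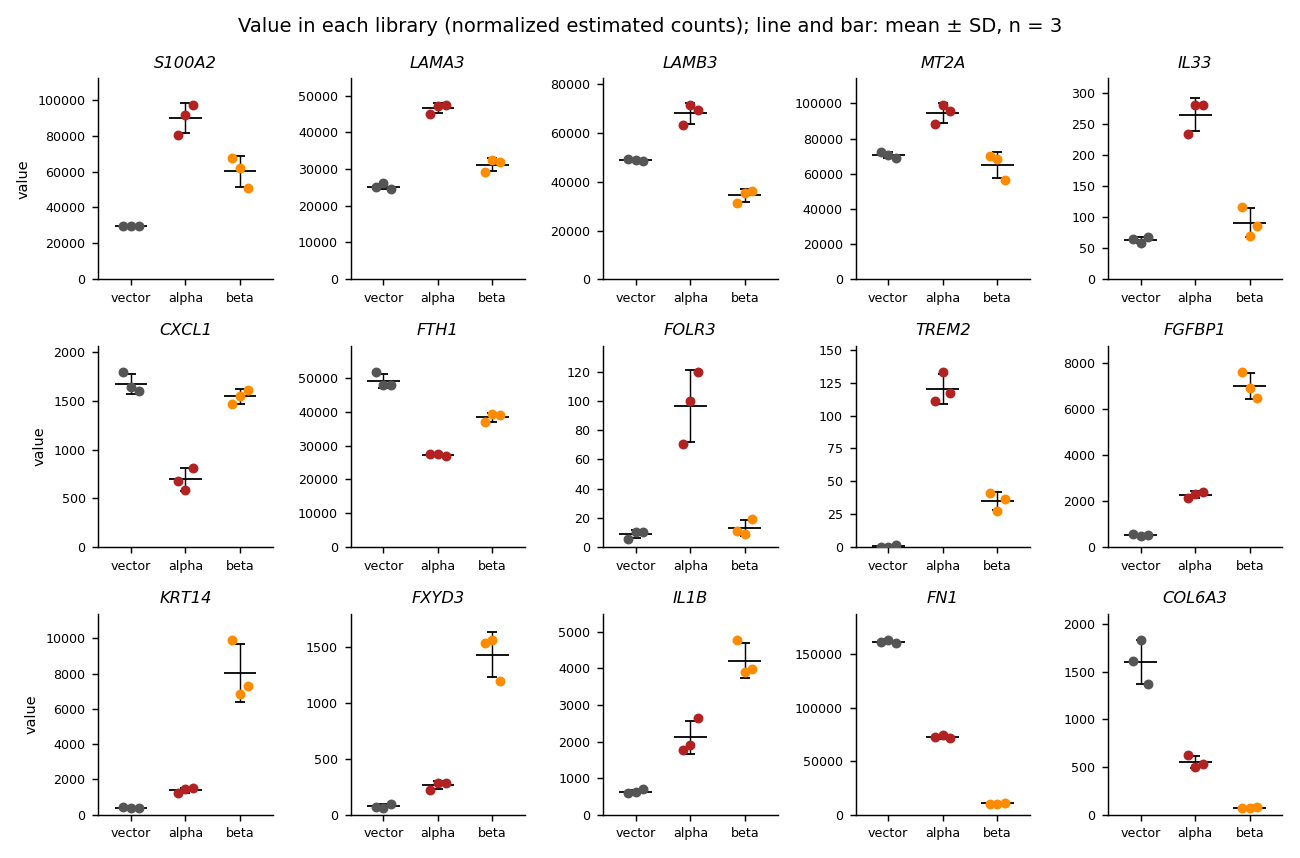
For 15 genes, each panel shows the value in each vector, deltaNp63alpha and deltaNp63beta library (normalized estimated counts, 3 libraries per group), with a line and bar for the mean ± SD. IL33, FOLR3 and TREM2 are highest with deltaNp63alpha, KRT14 and FXYD3 are highest with deltaNp63beta, and CXCL1 is lowest with deltaNp63alpha.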

How the data were processed

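Poly(A) RNA was sequenced from 9 libraries, of which 6 are compared here. The deposited values have the unit signal: estimated counts per gene, normalized by the authors. The submitters' processing notes name kallisto 0.46.2, DESeq2 (version not given) and GRCh38, without stating the step that gave these numbers. Whole counts were not recovered: low values lay on a step in each library, but only 59.95% to 63.46% of values up to 20 steps were whole within 0.1 step. The step put the depth of the 6 libraries at 20.3 to 24.4 M (mega) fragments. No counting interval was computed.

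Genes that reached 10 in 3 or more of the 6 libraries were tested with limma 3.58.1 (R 4.3.3, trend and robust moderation) on log2(value + 1). The fit held all 9 libraries, with 1 coefficient for each group, and a gene was called at a Benjamini-Hochberg adjusted p under 0.05 over the 14738 genes. Because of the pseudocount, fold changes understate the ratio of means in low genes. Tables and plots were made with matplotlib 3.10.9, numpy 2.4.6 and pandas 2.3.3 under Python 3.11.15. On simulated data for this comparison over 14738 genes, 73.1% of 67 genes changed 1.5-fold, 86.6% of 67 changed 2-fold and 97% of 66 changed 4-fold were recovered, with 11 false among 182 calls. The data themselves gave 2208 calls. The changed genes were drawn only from genes above a minimum level with vector, so the shares do not cover genes below it. The shares were also given by fold and not by level. They therefore do not show the recovery among the 3584 genes with a mean under 100, where the median SE was 0.392.

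The comparison and the 36 gene lists were chosen with earlier results of these data known, so list counts are descriptions. Genes were named by rule: TP63, the 15 largest rises and falls with a mean of at least 100 that kept their call without each library, the 10 largest rises and falls in value, near-silent genes, and the leading or opposing members of lists (230 genes, of which 65 overlapped another gene on the same strand). The 15 largest rises and falls also had to have groups that did not overlap, so separation in those genes was fixed by the choice. GENCODE release 29 gave positions. Many further members of lists were outside this rule and were named after their values were seen. JUP, FERMT1, PLEC, CD151, S100A3, S100A16, ZEB1, ZEB2, VIM, NRG1, TGFA, NLRP3, CASP1, IL1RAP and IL6 are examples. Some genes that the rule names are not reported here. Alternatives were 3 scalings, 2 filters, 2 pseudocounts, only the 6 libraries, a replicate block, no trend, a test against 1.5-fold and leaving out each library. Replicate numbers did not pair the libraries.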

Additional observations from a re-analysis of the deposited data

How the results depend on the processing

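With deltaNp63alpha against vector, a test against a 1.5-fold change called 134 genes higher and 47 lower, and 392 genes differing between the isoforms. On leaving out 1 library, between 923 and 1239 genes were higher, between 644 and 1029 were lower and between 3827 and 4769 differed between the isoforms, and the log2 fold change of TP63 lay between 4.20 and 4.53. The other alternatives kept these counts within 1.5 times. Equal totals gave 1108 higher and 1127 lower genes, so the direction with more genes turned. Of the 230 genes considered by name, quantile normalization reversed KRT81 (0.33) and brought EEF1A1 to 0.0. No other setting reversed a gene considered by name. A test with no trend and no robust moderation left 27 of them short of the threshold, and the test against a 1.5-fold change left 143.

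Replicate numbers in the labels were shared by the groups, but across genes, residuals of equally numbered vector and deltaNp63alpha libraries had correlations from -0.147 to -0.0151, and unequally numbered ones from -0.0164 to 0.133. With a replicate block, 1058 genes were higher, 783 were lower and 4544 differed between the isoforms, and TP63 stood at 4.31. A total of 19 genes considered by name then missed the threshold.

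The precision is limited by 3 libraries per group and, below a mean of 100, by a median SE of 0.392 on the log2 scale. Smaller changes in such genes could therefore be missed, though some were called.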
